A study of Mus musculus with 12 samples.

Results

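The ephrin, Slit-Robo, netrin and Nogo systems are families of ligands and receptors through which neurons read where to grow. Members were taken by gene symbol: the ephrin ligands (Efna1 to Efna5, Efnb1 to Efnb3), the Eph receptors, the Slits, the Robo receptors, the netrins, the netrin receptors Dcc and Unc5a to Unc5d, the netrin-Gs (Ntng1, Ntng2), and Nogo and its receptor (Rtn4, Rtn4r). The symbols matched 42 of the 24100 genes in the deposited table, and the rule itself uses no measured value. RNA was sequenced from primary entorhinal cortex (EC) neurons of C57BL/6J mouse embryos at embryonic day 17. The cultures received an adeno-associated virus at 7 days in vitro, at 1e+10 viral genomes per ml, and RNA was taken 4 days later, with 3 wells in each of 4 groups. The Dek-silencing group received AAV1-mCherry-U6-mDEK-shRNA, and its control received AAV1-mCherry-U6-scrmb-shRNA (scrambled). The overexpression group received AAV1-hSyn1-mDEK-IRES-mCherry, with Dek driven by the neuronal synapsin promoter, and its control AAV1-hSyn1-mCherry-WPRE (empty vector). All 12 wells thus carried a virus that makes mCherry, and the hairpins were made from a U6 promoter, which is active in every cell type. Nothing in the records says whether the wells of a group came from separate dissections, so p-values measure the spread between wells, which may be technical.

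Ephrins are anchored in the membrane and signal to Eph receptors on touching cells, mostly by repulsion. EphA receptors bind mainly the lipid-anchored ephrin-As and EphB receptors mainly the transmembrane ephrin-Bs. Slits are secreted proteins that repel growth cones carrying Robo receptors, while netrin-1 attracts axons through Dcc and repels them through Unc5 receptors. Netrin-Gs are lipid-anchored proteins on axons that bind partners on dendrites, and Nogo is a membrane protein that stops axon growth through the receptor encoded by Rtn4r. Many of these genes stay on in mature cortical neurons, where they act at synapses.

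Library totals ran from 15679567 to 18933382 estimated counts. Levels are given below in counts per 1000000 (CPM) after TMM scaling over the 12 libraries. Dek was at 7.98, 6.64 and 8.61 CPM in the silenced wells against 35.2, 36.6 and 36.3 CPM in the scrambled wells, and at 129 to 156 CPM in the overexpressing wells against 36 to 41.1 CPM with empty vector. Summed over 9 pan-neuronal markers, the level was 5902 to 6469 CPM in the silenced wells and 7018 to 7454 CPM in all other wells, while the endothelial markers summed to at most 2.40 CPM. The microglial markers summed to at most 12.4 CPM, with Tmem119 near 0 in every well and Aif1 at a mean of 8.79 CPM with empty vector, 9.75 with Dek cDNA, 3.66 with the scrambled hairpin and 1.22 in silenced wells. Cx3cr1 and Csf1r went the other way, with means of 0.131 and 0.431 CPM with empty vector and 0.768 and 0.962 CPM in silenced wells. In bulk RNA, fewer cells of a type and less RNA per cell cannot be told apart.

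Per kilobase of annotated exon, the most abundant member in the empty vector wells was Rtn4, at 148 ± 3.36 CPM per kb (SD, n = 3). The ligand Efnb3 followed with 111 ± 4.25 CPM per kb, then Efnb2 with 26.2 ± 0.667 and Ntng2 with 19 ± 0.930 CPM per kb. The wells of these 4 genes did not overlap with those of the next gene in the order. Slit1 (15.9 CPM per kb), Ephb6 (15.8 CPM per kb), Robo2 (15.3 CPM per kb) and Epha5 (14.9 CPM per kb) came next, and neighbours among them overlapped between wells. At the low end stood Ephb4 (0.173 CPM per kb), Efna1, Epha1, Ntn5 and Robo4, each of the last 4 at or below 0.104 CPM per kb. Efna1, Epha1, Ntn5 and Robo4 had at most 11 counts in any library, failed the filter on low counts, and were not tested. The other 38 members were tested in every comparison. Dividing by the longest transcript in place of all exons left Rtn4 first (224 CPM per kb) and Efnb3 second (111 CPM per kb) but put Ntng2 (38.8 CPM per kb) above Efnb2 (37.4 CPM per kb).

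**Figure D1:**
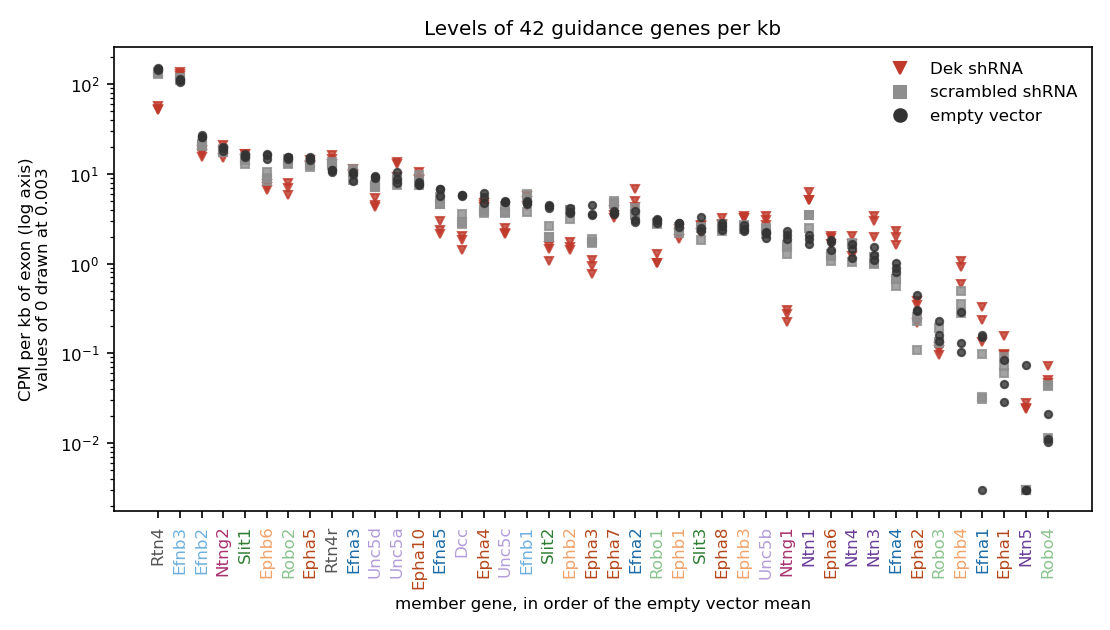
Levels of the 42 members in CPM per kb of exon (log axis) in the Dek shRNA, scrambled shRNA and empty vector wells, ordered by the empty vector mean, with gene names coloured by role. Rtn4 and Efnb3 sit far above the rest in the empty vector wells, at 148 and 111 CPM per kb, and the silenced wells of Ntng1, Robo1, Rtn4 and Ephb2 sit below those of both controls.

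The first comparison asked how the guidance genes differed between Dek-silenced and scrambled wells. The silenced wells had less Ntng1, Rtn4, Robo1, Robo2, Ephb2 and Efna5 RNA, less of the netrin receptors Dcc, Unc5c and Unc5d, and more of the ligands Ntn1, Ntn3 and Efna4 and the receptor Ephb4. Of the 38 members tested, 25 changed at an adjusted p below 0.05, with 11 higher and 14 lower in the silenced wells. Over all 14232 genes tested, 54.7% changed, 26.2% higher and 28.5% lower, so a large share of any list would be called here. Among the members 28.9% were called higher and 36.8% lower. The median log2 fold change (log2FC) was 0.02 over the members and −0.00 over all genes, and the median absolute log2FC was 0.50 over the members and 0.34 over all genes. The silenced and scrambled wells did not overlap for 26 members, or 68.4%, against 61.9% of all genes.

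The largest change was in Ntng1, the netrin-G that marks axons and binds its partner on dendrites. Ntng1 was at 1.85, 2.51 and 2.23 CPM in the silenced wells and at 13.3, 12.6 and 10.7 CPM in the scrambled wells. It fell by 2.48 on the log2 scale (SE 0.17), which is 5.57-fold, with an adjusted p of 1.8e-07, and every silenced well lay below every scrambled well. Its paralogue Ntng2 was at 59.6, 71.7 and 83.5 CPM against 70.3, 69.4 and 75.4 CPM, so that the groups overlapped (log2FC −0.01, SE 0.11, adjusted p 0.93). Rtn4, which encodes Nogo, fell from 907 to 949 CPM in the scrambled wells to 360 to 399 CPM in the silenced wells (log2FC −1.32, SE 0.05, adjusted p 3.7e-09). Exons of Eml6 on the opposite strand cover 18.4% of the Rtn4 exon bases, and the sources used here do not say whether counting used strand. The receptor gene Rtn4r was at 24.9, 31.2 and 28.4 CPM against 24.2, 26.3 and 24.9 CPM, with a log2FC of 0.15 (SE 0.10, adjusted p 0.19).

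Among Robo receptors, Robo1, a repulsive receptor for Slits, was at 21.3, 16.9 and 16.7 CPM in silenced wells and at 47.0, 47.3 and 45.5 CPM in scrambled wells. Robo1 fell by 1.37 (SE 0.09), 2.58-fold, with an adjusted p of 2.3e-07. Robo2 was at 134, 99.9 and 118 CPM against 248, 220 and 226 CPM and fell by 0.99 (SE 0.10, adjusted p 2e-05). Both receptors thus stood lower in every silenced well than in any scrambled well. Robo3, at 0.654 to 1.3 CPM over both groups, with 12 to 29 counts per library over all 12 wells, was not called (log2FC −0.51, SE 0.33, adjusted p 0.21). Of the ligands, Slit2 was at 39.7, 27.1 and 36.7 CPM against 66.5, 50.0 and 50.7 CPM and fell by 0.71 (SE 0.16, adjusted p 0.0069). Slit1 (log2FC 0.15, SE 0.08, adjusted p 0.11) and Slit3 (log2FC 0.12, SE 0.14, adjusted p 0.48) were not called, and Slit1 was called with a log2FC of 0.15 and an adjusted p of 0.023 when wells were blocked by number.

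Short stretches that match the hairpin are shown for 5 of the 6 members that fell and hold AAGAGGA, because a hairpin guide can also act on other transcripts through its seed. The annotated guide pairs through bases 2 to 8 with AGGATCT, and a guide that starts at base 4 pairs in the same way with AAGAGGA. The second set of letters was taken up after the values of these data had been seen. Below, 23 bases of the 3′ UTR are given, with the match in capitals, from GENCODE M21 transcripts on GRCm38, at the site nearest the stop codon where a gene holds several. The sites are at chr3:109782377-109782399 (minus strand) in Ntng1, chr16:73045619-73045641 (plus strand) in Robo1, chr17:62606593-62606615 (minus strand) in Efna5, chr4:136655053-136655075 (minus strand) in Ephb2 and chr3:141830737-141830759 (plus strand) in Unc5c.
Ntng1: gcgcccccAAGAGGAaagacgga
Robo1: aagctcatAAGAGGAattccaac
Efna5: atgctaatAAGAGGAagtgtgga
Ephb2: ttcgttccAAGAGGAttctcata
Unc5c: taaaaagtAAGAGGAagaaagac

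The letters AAGAGGA, searched in the sense direction only, were in the 3′ UTR of 10 of the 38 members tested (26.3%), against 22.1% of 13491 genes with a 3′ UTR. These 10 were Dcc, Efna5, Efnb1, Epha4, Epha5, Ephb2, Ntng1, Robo1, Robo3 and Unc5c. Of them 6 were lower and 1 higher in silenced wells, with a median log2FC of −0.80. Of the 28 members without the letters 8 were lower and 10 higher, with a median log2FC of 0.15. Over all genes, 43.1% of those with the letters and 25.3% of those without were lower, with medians of −0.18 and 0.04. Like holders of the other sets below, these holders stood lower in scrambled than in empty vector wells, where no well had the Dek hairpin. There 6 of the 10 members were lower and 0 higher, with a median log2FC of −0.28 against −0.14 for members without the letters. Of all genes, 30.5% of those with the letters and 20% of those without were lower there. The members with the letters also had longer 3′ UTRs, with a median of 3.23 kb against 1.58 kb. Rtn4, Robo2, Epha3, Slit2, Unc5d, Epha7, Ephb6 and Efnb2 fell and do not hold these letters. AGGATCT was in the 3′ UTR of 4 members (Dcc, Efna4, Robo2 and Unc5c; 10.5%, against 13.5% of all genes), of which 3 were lower and 1 higher. The letters at the same positions of the scrambled hairpin were in 6 members for AGCACCA, of which 4 were lower and 1 higher in silenced wells (median log2FC −0.60, against 0.07 for members without them), and in 5 for AAGAGCA, of which 3 were lower and 0 higher (median log2FC −0.34, against 0.12). Members that held these control letters thus also had medians below those of members without them. Over all genes 31.7% of the holders of each of these sets were lower in silenced wells, against 28.8% and 28.5% of genes without them. For the letters of the annotated guide the shares were close to those, at 31.8% of holders and 28.8% of genes without them. In scrambled against empty vector wells, the shares of all genes that were lower resembled those for AAGAGGA. They were 31.4% of holders and 21% of other genes for AGGATCT, 31.7% and 20.7% for AGCACCA, and 31.6% and 19.7% for AAGAGCA. Among the members, Dcc and Unc5c hold every set of letters searched except AAGAGCA, so the member counts of the sets are not separate. A match is a description of the letters and shows neither binding nor a cause.

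Ephrin ligands moved in both directions. Efna5, the ephrin-A best known from topographic maps, was at 12.1, 9.64 and 8.56 CPM in silenced wells against 22.4, 18.4 and 18.6 CPM, and fell by 0.99 (SE 0.13, adjusted p 6.1e-05). Efna4 was at 3.15, 3.70 and 2.55 CPM against 0.908, 1.07 and 1.07 CPM and rose by 1.61 (SE 0.25, adjusted p 0.00018), on 16 to 68 counts per library. An antisense gene covers 10.5% of the Efna4 exon bases and another 14.1% of those of Efna3, while a transcript on the same strand covers 14% of those of Ntng2, so reads there may be shared. Efna2 was at 9.03, 14.7 and 10.7 CPM against 7.49, 8.93 and 7.69 CPM (log2FC 0.50, SE 0.18, adjusted p 0.030), and that call was lost without silenced replicate 2 or 3 or without scrambled replicate 1 or 3 (adjusted p up to 0.16). Efna3 was not called (log2FC 0.01, SE 0.11, adjusted p 0.95). The ephrin-Bs are both ligands and reverse-signalling receptors. Efnb2 fell from 140 to 149 CPM to 107 to 126 CPM (log2FC −0.34, SE 0.06, adjusted p 0.00070). Efnb3, the most abundant ligand per kb, was at 414, 440 and 398 CPM against 353, 373 and 371 CPM, a difference of 0.18 (SE 0.05, adjusted p 0.014) that was not called without silenced replicate 2 (adjusted p 0.062) or scrambled replicate 1 (adjusted p 0.054). Efnb1 was at 15.2, 19.5 and 17.3 CPM against 13.0, 18.3 and 20.7 CPM and was not called (adjusted p 0.96).

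The EphB receptors, receptor tyrosine kinases that also act at excitatory synapses, were split as well. Ephb2 was at 17.9, 19.2 and 21.8 CPM in silenced wells and at 39.7, 50.5 and 49.6 CPM in scrambled wells, and fell by 1.26 (SE 0.11, adjusted p 2.6e-06). Its 3′ UTR of 7783 bases is the longest of the members and holds AAGAGGA at 5 places. Ephb6, which lacks kinase activity, was at 25.0, 26.7 and 28.8 CPM against 31.8, 39.5 and 33.9 CPM and fell by 0.40 (SE 0.10, adjusted p 0.0043). The EphB receptors that stood higher were Ephb3 and Ephb4. Ephb3 rose from 16.3 to 17.9 CPM to 21.2 to 22.7 CPM (log2FC 0.33, SE 0.09, adjusted p 0.0060). Ephb4, best known from venous endothelium, was at 2.72, 4.90 and 4.25 CPM against 1.65, 1.31 and 2.31 CPM and rose by 1.17 (SE 0.28, adjusted p 0.0038). The summed endothelial markers were at 0.904 to 1.48 CPM in silenced wells and at 1.12 to 1.93 CPM in scrambled wells. Ephb1 was not called (log2FC −0.14, SE 0.12, adjusted p 0.33).

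Of the 8 EphA receptors tested, 2 were lower, 2 higher and 4 not called. Epha3 was at 9.46, 6.64 and 8.13 CPM against 16.5, 15.3 and 14.7 CPM and fell by 0.96 (SE 0.13, adjusted p 7.5e-05). Epha7 was at 39.6, 32 and 34.6 CPM against 49.4, 45.5 and 46.8 CPM and fell by 0.43 (SE 0.08, adjusted p 0.00090). Every silenced well of both receptors lay below every scrambled well. Epha6 was at 8.84, 10.8 and 10.3 CPM against 5.62, 6.85 and 6.51 CPM and rose by 0.65 (SE 0.14, adjusted p 0.0019). Epha4, which binds both ephrin classes, was at 36.5, 38.7 and 34.0 CPM against 31.1, 33.0 and 29.6 CPM, for a log2FC of 0.21 (SE 0.08) and an adjusted p of 0.044. The Epha4 call was lost without any of the silenced replicates 1 and 2 or the scrambled replicates 1, 2 and 3 (adjusted p from 0.051 to 0.17). Epha5, the EphA receptor with the highest level, was at 242, 209 and 203 CPM against 220, 210 and 201 CPM, and the groups overlapped (log2FC 0.04, SE 0.07, adjusted p 0.68). Epha2, Epha8 and Epha10 had log2FC values of 0.66, 0.20 and 0.11 with adjusted p of 0.14, 0.16 and 0.39.

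Of the netrin ligands tested Ntn1 and Ntn3 were higher, and of the netrin receptors Dcc, Unc5c and Unc5d were lower while Unc5a and Unc5b were higher. Ntn1, which encodes netrin-1, was at 32.3, 39.3 and 32.1 CPM in silenced wells against 15.7, 22.0 and 21.8 CPM and rose by 0.79 (SE 0.14, adjusted p 0.00080). Ntn3 was at 10.0, 17.2 and 15.1 CPM against 5.16, 5.12 and 6.04 CPM and rose by 1.37 (SE 0.20, adjusted p 0.00015). For both netrins every silenced well lay above every scrambled well. Ntn4, a netrin of basement membranes, was at 3.91 to 7.68 CPM over both groups and was not called (adjusted p 0.60). Dcc was at 27.1, 18.8 and 24.5 CPM against 46.7, 36.6 and 37.9 CPM and fell by 0.80 (SE 0.14, adjusted p 0.00091). Unc5c fell from 70.5 to 83.4 CPM to 41.1 to 48.2 CPM (log2FC −0.81, SE 0.08, adjusted p 6.3e-06), and Unc5d fell from 65.5 to 69.9 CPM to 39.1 to 49.7 CPM (log2FC −0.65, SE 0.08, adjusted p 3.9e-05). Unc5a and Unc5b went the other way. Unc5a was at 38.4, 56.1 and 53.4 CPM against 31.4, 35.4 and 37.5 CPM (log2FC 0.49, SE 0.14, adjusted p 0.018), and Unc5b at 21.3, 19.2 and 16.9 CPM against 13.2, 15.2 and 15.6 CPM (log2FC 0.37, SE 0.11, adjusted p 0.015). Unc5a was not called without silenced replicate 2 or 3 or scrambled replicate 1 (adjusted p from 0.058 to 0.077), and Unc5b was not called without scrambled replicate 1 (adjusted p 0.057).

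**Figure D2:**
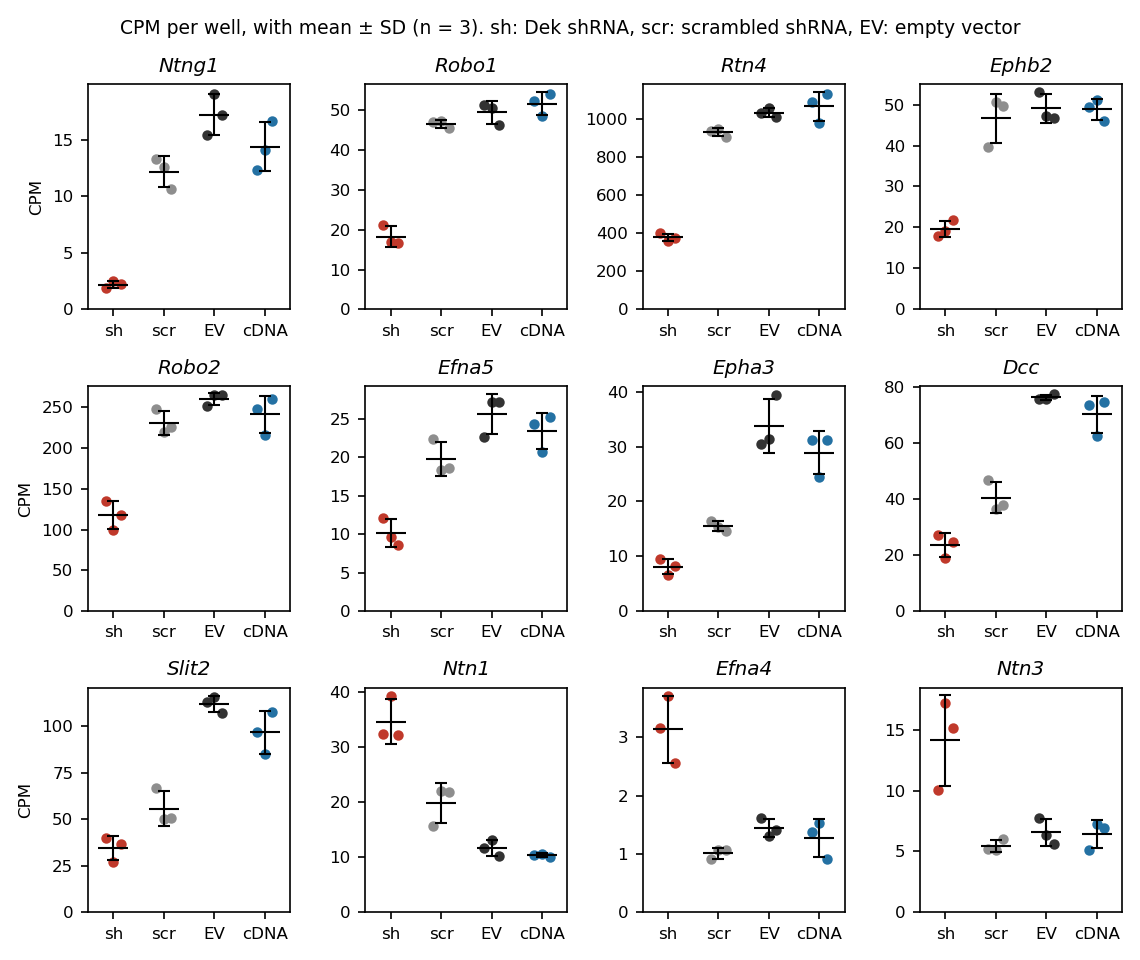
CPM of 12 members in each well, with the mean and SD of 3 wells, in the Dek shRNA (sh), scrambled shRNA (scr), empty vector (EV) and Dek cDNA groups. Ntng1, Robo1, Rtn4 and Ephb2 are lowest in the silenced wells, Epha3, Dcc and Slit2 are lower in scrambled than in empty vector wells and lower again in silenced wells, and Ntn1 rises in the same 2 steps.

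Marker genes of other cells also differed between these groups, and their part in the results was not tested. The 5 oligodendrocyte markers summed to 81.9 to 89.1 CPM in silenced wells and 30.6 to 41.1 CPM in scrambled wells, with 3 of the 4 tested higher and Mog lower. The 5 markers of oligodendrocyte precursors summed to 92.4 to 199 CPM against 62.2 to 110 CPM, with 3 of 5 higher. Of the 9 pan-neuronal markers 6 were lower and 1 higher, while the 5 excitatory markers (1 higher, 1 lower) summed to 286 to 312 CPM against 269 to 311 CPM. The 5 GABAergic markers (2 higher) summed to 2330 to 2709 CPM against 2315 to 2464 CPM. Astrocyte markers (0 of 7 called by edgeR, DESeq2 or limma-voom, and 0 at an unadjusted p below 0.05) summed to 473 to 792 CPM against 499 to 764 CPM, and the progenitor markers (1 of 5 higher) to 62.2 to 103 CPM against 89.9 to 130 CPM. The microglial markers summed to 2.83 to 3.51 CPM against 4.41 to 6.16 CPM. Of the 3 tested 1 was lower (Aif1, log2FC −1.60, adjusted p 5.5e-05) and 0 higher, with a median log2FC of 0.08. Means of Cx3cr1 and Csf1r did not follow Aif1, at 0.768 and 0.962 CPM in silenced wells against 0.508 and 0.894 CPM in scrambled wells. The fibroblast and mural markers (1 of 4 tested higher) summed to 17 to 18.5 CPM against 10.8 to 11.4 CPM.

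The scrambled hairpin was itself compared with the empty vector, since the viruses differ in promoter and cargo. Of the 38 members, 19 changed, with 4 higher and 15 lower in scrambled wells, while 43.1% of all 14096 genes changed, 21.3% higher and 21.8% lower. The median log2FC was −0.17 over the members and 0.01 over all genes. Epha3 was at 30.4, 31.4 and 39.4 CPM with empty vector, against 16.5, 15.3 and 14.7 CPM with the scrambled hairpin (log2FC −1.13, SE 0.10, adjusted p 4.7e-06). Slit2 was at 113, 116 and 107 CPM against 66.5, 50.0 and 50.7 CPM (log2FC −1.01, SE 0.10, adjusted p 0.00012). Dcc was at 75.7, 75.7 and 77.4 CPM against 46.7, 36.6 and 37.9 CPM (log2FC −0.92, SE 0.08, adjusted p 5e-06). For Epha3, Slit2 and Dcc the log2FC between the controls was greater in size than that between silenced and scrambled wells (−0.96, −0.71 and −0.80), though the gap itself was not tested. Ephb6 was lower by a log2FC of −0.77 (SE 0.08, adjusted p 1.3e-05), and Ntn1 was higher (log2FC 0.77, SE 0.14, adjusted p 0.0011). Ephb4 was at 1.33, 0.474 and 0.600 CPM with empty vector (log2FC 1.12, SE 0.38, adjusted p 0.028), a call that was lost without scrambled replicate 3 or empty vector replicate 2 or 3 (adjusted p from 0.10 to 0.12). Epha7 was higher (log2FC 0.37, adjusted p 0.00031), as was Rtn4r (log2FC 0.26, adjusted p 0.012), which was not called without scrambled replicate 2 (adjusted p 0.059), in the joint fit of 12 libraries (adjusted p 0.15) or once libraries were corrected for GC and length (log2FC 0.044, adjusted p 0.66).

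Markers of neuron types and of other cells also differed between the controls, and their part in these differences was not tested. The 5 excitatory markers summed to 269 to 311 CPM in scrambled wells and 451 to 484 CPM in empty vector wells, with 3 of 5 lower. The 5 GABAergic markers summed to 2315 to 2464 CPM against 1875 to 1939 CPM, with all 5 higher. Reln and Calb1, markers of entorhinal layer II, summed to 1299 to 1361 CPM against 800 to 939 CPM, with 1 higher and 1 lower. The microglial markers summed to 4.41 to 6.16 CPM against 9.27 to 9.82 CPM, with Aif1, the 1 marker of 6 that could be tested, lower. Means of Cx3cr1 and Csf1r, not tested, were 0.508 and 0.894 CPM in scrambled wells against 0.131 and 0.431 CPM with empty vector. The fibroblast and mural markers summed to 10.8 to 11.4 CPM against 15.4 to 19.2 CPM (3 of 5 tested lower), and the oligodendrocyte markers to 30.6 to 41.1 CPM against 44.4 to 45.2 CPM (Mbp lower, 1 of 4 tested). Sums of the pan-neuronal, astrocyte, oligodendrocyte precursor, endothelial and progenitor markers overlapped between the controls, though single markers were called. Of 7 astrocyte markers, edgeR called 2 higher, DESeq2 called 3 and limma-voom 0, with a median log2FC of 0.64. Of 9 pan-neuronal markers 2 were higher and 2 lower. Of 5 precursor markers, edgeR called 1 higher and 0 lower, DESeq2 called 3 and limma-voom 1. Their median log2FC was −0.87, and 4 had an unadjusted p below 0.05 in edgeR. Mean levels of Pdgfra, Cspg4 and Sox10 were lower in scrambled wells, while those of Olig1 and Olig2 were higher. Of 5 progenitor markers 1 was lower. A difference between the hairpin and synapsin-promoter viruses cannot be told apart from one between the cultures used for them.

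Against the empty vector, the control of the overexpression group, 26 of 38 members differed in the silenced wells, with 10 higher and 16 lower. Of all genes 67.4% differed there (34% higher, 33.5% lower). These comparisons share wells, so their values are given side by side and not as separate evidence. The log2FC of silencing was −2.48 against scrambled and −2.96 against empty vector for Ntng1, −1.37 and −1.44 for Robo1, −1.32 and −1.45 for Rtn4, and −1.26 and −1.32 for Ephb2. For these 4 genes the difference between the controls was small beside that of silencing, at a log2FC of −0.50 for Ntng1 (adjusted p 0.0027), −0.09 for Robo1 (adjusted p 0.27), −0.15 for Rtn4 (adjusted p 0.0037) and −0.08 for Ephb2 (adjusted p 0.54). After correction for GC content and length Rtn4 was no longer called between the controls (adjusted p 0.44), nor was Ntng1 once wells were also blocked by number (adjusted p 0.10). The values were −0.96 and −2.07 for Epha3, −0.71 and −1.70 for Slit2, and −0.80 and −1.70 for Dcc. On the higher side they were 1.37 and 1.11 for Ntn3, 1.61 and 1.12 for Efna4, 0.79 and 1.57 for Ntn1, and 1.17 and 2.31 for Ephb4. In all, 13 members were lower in silenced wells than in either control and 8 were higher than in either. The share of all genes called against both controls was not computed, so these counts are not read as particular to the members. Of the 13, 11 (all but Ephb2 and Robo1) were also lower in scrambled than in empty vector wells. Of the 8, 2 (Ephb4 and Ntn1) were also higher there. The 13 were Dcc, Efna5, Efnb2, Epha3, Ephb2, Ephb6, Ntng1, Robo1, Robo2, Rtn4, Slit2, Unc5c and Unc5d, and the 8 were Efna2, Efna4, Efnb3, Ephb3, Ephb4, Ntn1, Ntn3 and Unc5b. Against empty vector, Efnb3 lost its call after correction for GC content and length (log2FC from 0.24 to 0.037, adjusted p 0.58, or 0.65 with wells blocked by number), and Efna2 lost it with the correction and the block (log2FC from 0.71 to 0.37, adjusted p 0.086). Epha7 was lower and Epha6 and Unc5a higher against scrambled only (log2FC against empty vector −0.05, 0.18 and 0.39, adjusted p 0.63, 0.25 and 0.053). Epha4 was higher than in scrambled wells (log2FC 0.21) and lower than in empty vector wells (log2FC −0.28, adjusted p 0.017), and the latter call was lost without silenced replicate 3 (adjusted p 0.052) or empty vector replicate 1 (adjusted p 0.067).

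**Figure D3:**
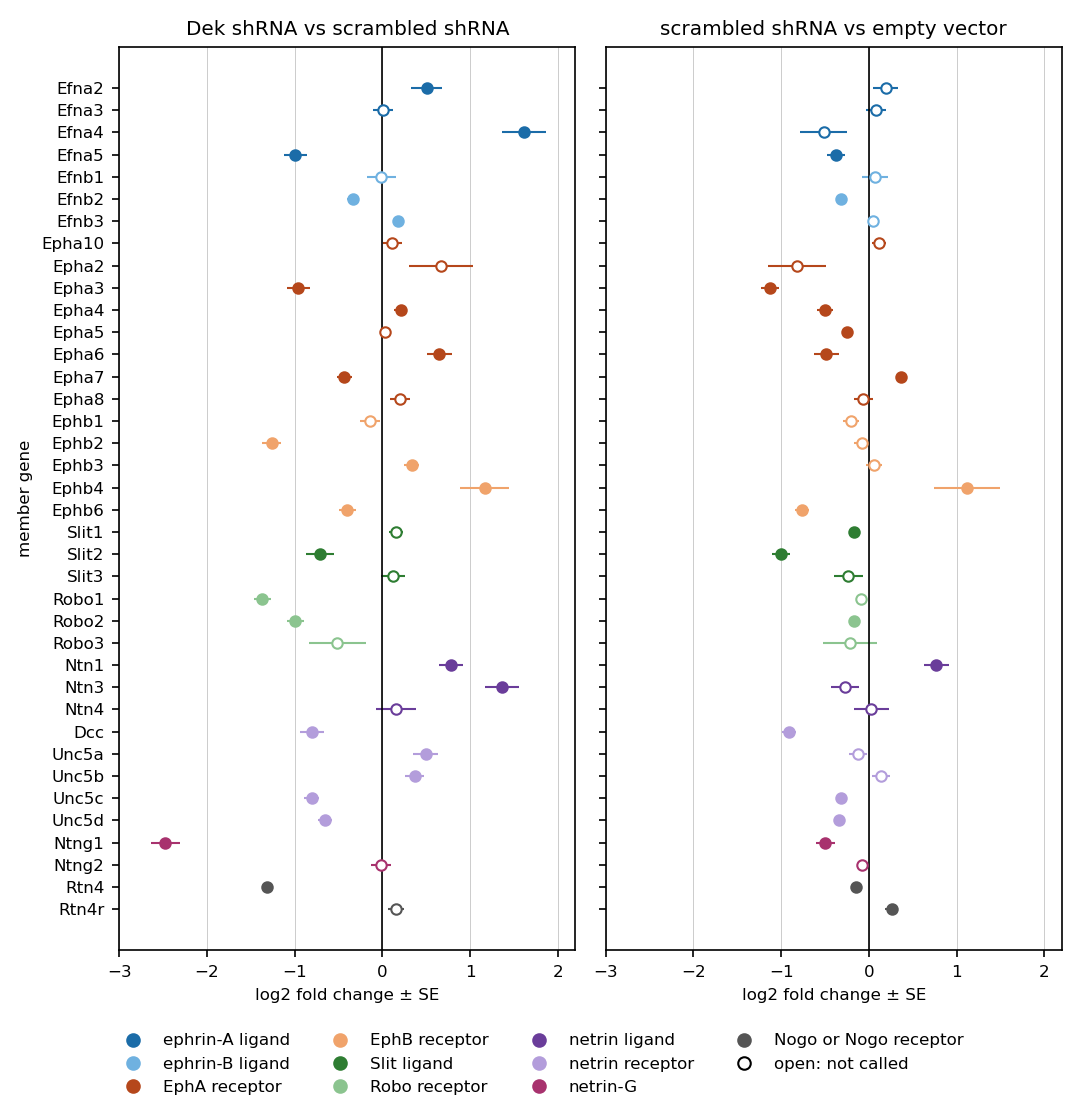
Log2FC with its SE for the 38 members tested, grouped by role, for Dek shRNA against scrambled shRNA (left) and scrambled shRNA against empty vector (right), filled where the adjusted p was below 0.05. On the left 14 members are filled below 0 and 11 above, and on the right 15 below and 4 above.

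**Figure D4:**
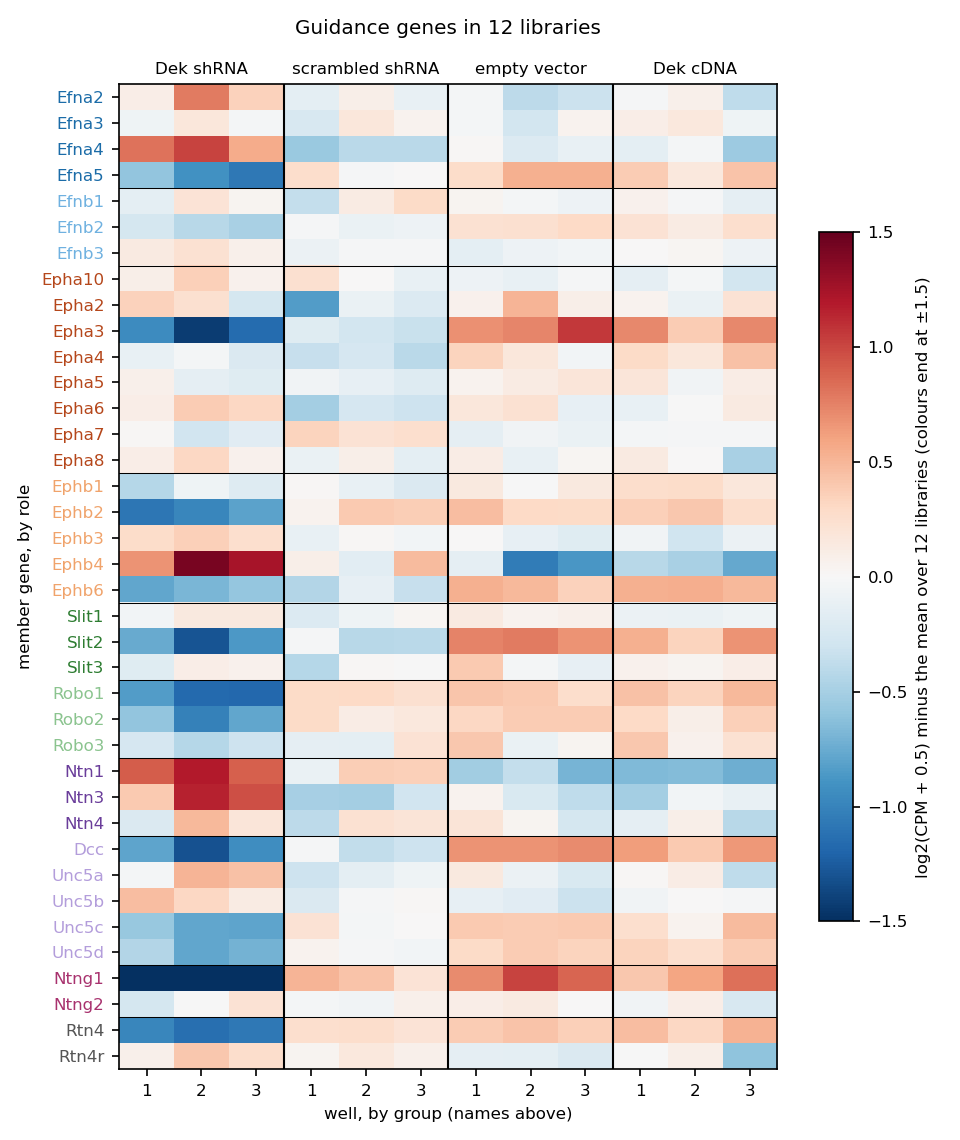
Log2(CPM + 0.5) of the 38 members tested in the 12 wells, minus each gene's mean, by group and role, with colours ending at 1.5 in either direction. No member was called between the Dek cDNA and empty vector wells, while the silenced wells are blue for Ntng1, Robo1, Rtn4 and Ephb2 and red for Ntn1, Ntn3, Efna4 and Ephb4.

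Members that fell and members that rose differed in base composition and length. The 14 members that were lower in silenced than in scrambled wells had a median GC content of 45.2% and a median length of 7.15 kb in their longest transcript, with a median 3′ UTR of 3.33 kb. The 11 that were higher had a median GC content of 57.8%, a length of 4.34 kb and a 3′ UTR of 1.22 kb. Over all genes the medians were 48.5% GC and 4.00 kb among the lower and 51.4% GC and 3.18 kb among the higher genes. The pattern had exceptions. Ephb6 (59.4% GC) and Ephb2 (55.3% GC) fell, and Epha4 (45.6% GC) and Epha6 (48% GC) stood higher. When each library was corrected for GC content and length, with wells blocked by number, log2FC was −2.34 for Ntng1, −1.22 for Robo1, −1.22 for Rtn4 and −1.11 for Ephb2, and every member that had been lower in silenced than in scrambled wells was still called. Under that fit Efnb3 lost its call (log2FC 0.10, adjusted p 0.074), and Epha5 (log2FC 0.29, adjusted p 1e-05), Slit1 (log2FC 0.19, adjusted p 0.0034) and Ntng2 (log2FC −0.14, adjusted p 0.032) gained a call. Without the block, Slit2 also lost its call (log2FC −0.47, adjusted p 0.078).

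Between the controls the same correction mattered more. The 15 members lower in scrambled than in empty vector wells had a median GC content of 45.5%, against 46.4% for all lower genes and 52.8% for all higher genes. With the correction for GC content and length, Robo2 turned from a log2FC of −0.17 to 0.20 (adjusted p 0.0076) and Epha5 from −0.25 to 0.11, and Robo1, not called before, from −0.09 to 0.16 (adjusted p 0.045). Unc5c and Unc5d turned from −0.32 and −0.34 to 0.052 and 0.021 and lost their calls. Epha3 (log2FC −0.88), Dcc (log2FC −0.53) and Slit2 (log2FC −0.64) were still called lower in scrambled wells after it. In silenced against empty vector wells, Epha4, Epha5 and Epha7 had log2FC values of 0.11, 0.39 and 0.47 with the correction and −0.28, −0.19 and −0.05 without it.

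**Figure D5:**
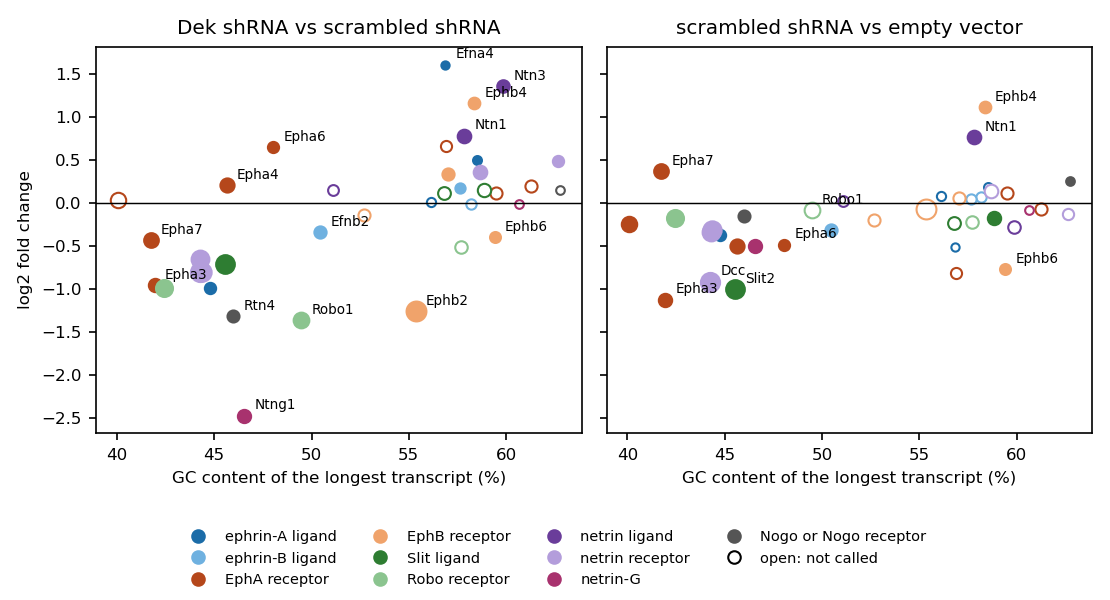
Log2FC of the 38 members tested against the GC content (%) of the longest transcript, for Dek shRNA against scrambled shRNA (left) and scrambled shRNA against empty vector (right), with points filled where called, coloured by role and larger for longer transcripts. On the left most members below 50% GC lie below 0, with Ntng1 at −2.48, and Ephb2 and Ephb6 lie below 0 at 55.3% and 59.4% GC.

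Overexpression of Dek was compared with the empty vector. By the quasi-likelihood test of edgeR, 0 of 38 members changed, and the smallest adjusted p of a member was 0.69. Of all 14089 genes 1 changed (0.0071%), which was Dek itself (log2FC 1.89, adjusted p 1.4e-08). DESeq2 and limma-voom also called 0 members. At an unadjusted p below 0.05 there were 3 members, all lower, against 6.6% of all genes. They were Slit1 (log2FC −0.17, SE 0.06), Slit2 (log2FC −0.21, SE 0.08) and Ntng1 (log2FC −0.26, SE 0.12). Slit1 was at 83.7, 83.0 and 84.8 CPM in the overexpressing wells and 97.7, 92.0 and 93.5 CPM with empty vector, with no overlap, while Slit2 (97.1, 84.9 and 108 CPM against 113, 116 and 107 CPM) and Ntng1 (12.3, 14.1 and 16.6 CPM against 15.4, 19 and 17.2 CPM) overlapped. The median absolute log2FC was 0.11 over the members, against 0.50 in silencing. Wells did not overlap for 5 members, or 13.2%, against 11.7% of all genes.

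The difference between the silencing and the overexpression response, each against its own control, was tested in a fit of all 12 libraries. It was called for 19 of 38 members, 6 with a higher and 13 with a lower log2FC in silencing, where 43% of all 14604 genes were called (20.4% higher, 22.7% lower). It was −2.20 for Ntng1 (SE 0.21, adjusted p 1.5e-07), −1.42 for Robo1 (SE 0.12, adjusted p 3.1e-08), −1.35 for Rtn4 (SE 0.08, adjusted p 3.7e-10) and −1.24 for Ephb2 (SE 0.13, adjusted p 7.3e-07). On the higher side it was 1.80 for Efna4 (SE 0.36, adjusted p 0.00056), 1.42 for Ntn3 (SE 0.28, adjusted p 0.00051) and 0.97 for Ntn1 (SE 0.18, adjusted p 0.00037). Slit1, not called in either response, differed between them (log2FC 0.34, SE 0.09, adjusted p 0.0069), and for Slit2 the difference was −0.48 (SE 0.20, adjusted p 0.072; 0.0041 with wells blocked by number). For Ephb4 it was 1.05 (SE 0.51, adjusted p 0.11) and for Efnb3 0.11 (SE 0.07, adjusted p 0.23).

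The partners of these genes were listed separately, as 21 further ligands and coreceptors and 40 proteins that carry the signal to the cytoskeleton. Of the 21 ligands and coreceptors, 4 were higher and 5 lower in silenced than in scrambled wells, where 26.2% of all genes were higher and 28.5% lower, with a median log2FC of 0.08 against −0.00 for all genes. The lower ones included Flrt2, a transmembrane protein that binds Unc5 receptors (log2FC −1.29, adjusted p 1.7e-08), and Lrrc4c, which encodes the dendritic partner of netrin-G1 (log2FC −0.92, adjusted p 5.9e-07). Ngfr, a signalling partner in the Nogo receptor complex (log2FC −0.60), Rtn4rl1, a Nogo receptor homologue (log2FC −0.36), and Nell2, a secreted Robo3 ligand (log2FC −0.15), were lower too. Flrt1 was higher (log2FC 0.90, adjusted p 7.4e-06), as were Tnfrsf19, which can stand in for Ngfr (log2FC 0.55), Rtn4rl2 (log2FC 0.57) and Mag, a myelin ligand of Nogo receptors (log2FC 1.61, adjusted p 0.012). Mag is made by oligodendrocytes, whose summed markers were higher in the same wells, though Mog was lower (means of 0.707 against 1.61 CPM). Any part of these cells in the Mag value was not tested.

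Of the 40 effectors 7 were higher and 18 lower, beside the same 26.2% and 28.5% of all genes, with a median log2FC of −0.16 against −0.00 for all genes. The lower ones with the smallest adjusted p were Evl, an actin regulator of the Ena/VASP family (log2FC −1.13), Pak2, a kinase activated by Rac and Cdc42 (log2FC −1.12), Usp33, a deubiquitinase that binds Robo1 (log2FC −0.94), the kinase Abl2 (log2FC −0.84) and Rasa1, a Ras inhibitor recruited by Eph receptors (log2FC −1.09). The higher ones with the smallest adjusted p were Srgap1, a Robo-associated GTPase regulator (log2FC 0.76), the GTPases Rhoa (log2FC 0.40) and Rac1 (log2FC 0.32), Limk1, which phosphorylates cofilin (log2FC 0.34), and the kinase Fyn (log2FC 0.22). Between the controls, 5 ligands and coreceptors were higher and 7 lower in scrambled wells, and 8 effectors were higher and 14 lower, where 21.3% of all genes were higher and 21.8% lower. Rasa1 was lower there as well (log2FC −0.82), while Evl (log2FC 0.37) and Srgap1 (log2FC −0.52) went the other way from silencing. In silenced against empty vector wells 7 ligands and coreceptors were higher and 8 lower, and 8 effectors were higher and 22 lower, where 34% of all genes were higher and 33.5% lower. In overexpression edgeR, DESeq2 and limma-voom called 0 of 20 ligands and coreceptors and 0 of 40 effectors, with 2 and 3 at an unadjusted p below 0.05 in edgeR.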

How the data were processed

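Total RNA of 12 wells of cultured EC neurons, 3 in each of 4 groups, was sequenced from 200 ng of RNA per library, and the groups were read from the labels. The authors deposited estimated counts per gene for 24100 genes, not normalized. Of the values 38.6% were not whole. The submitters' processing notes name Salmon, DESeq2 and mm10, and the study's methods name alignment to mm10, without saying whether counting used strand. Reads shared by near-identical or overlapping genes may be split between them.

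The estimated counts were rounded to whole numbers. On the libraries of each comparison, edgeR 4.0.16 (R 4.3.3) was used for the filter (filterByExpr), the scaling (TMM) and the quasi-likelihood test, with robust dispersions. Calls were made at 0.05 after Benjamini-Hochberg adjustment across every gene in the test, log2FC is the fitted coefficient, and SE is the log2FC divided by the root of F. The difference between responses was fitted on all 12 libraries. With counts as low as 8 for Ephb4 and 9 for Epha2 in some libraries, precision there is limited by depth.

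The 42 members, all matched in GENCODE M21 (GRCm38, the assembly also called mm10), and all gene lists were chosen with earlier results of these data known. All members could be named, as could Dek, markers, and up to 5 genes per direction and comparison of each partner list, by the smallest adjusted p. Levels per kb used the union of exons. The 3′ UTRs of GENCODE were searched for the hairpin letters.

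Alternatives were the size factors of DESeq2 1.42.0, its Wald test, library size alone, limma-voom (limma 3.58.1), no filter, a joint fit of the 12 libraries, a minimum of 5 CPM in 3 of them, replicate number as a block, a correction of each library for GC content and length (known for 23784 genes) by splines with 5 degrees of freedom, that correction with the block, and each well left out. Same-numbered silenced and scrambled wells deviated together from their group means over genes (r = 0.46, 0.35 and 0.15). Scrambled well 3, however, went more with silenced well 2 (r = 0.32) than with silenced well 3. The numbers may thus pair these wells, but this is not settled, and the main fits used no block. The tests were tested on simulated data. Python 3.11.15 with pandas 2.3.3, numpy 2.4.6 and matplotlib 3.10.9 served for tables and plots.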

Additional observations from a re-analysis of the deposited data

How the results depend on the processing

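Of the 14 members lower in silenced than in scrambled wells, 13 kept their call under each of the 16 alternatives that tested them, the exception being Slit2 with the GC and length correction (log2FC −0.47, adjusted p 0.078), and of the 11 higher 6 kept it. The count of members changed ran from 20 to 26 with a well left out, and the count higher from 6 (without scrambled replicate 1) to 12, with 7 without silenced replicate 2. Epha4 also lost its call with DESeq2 (adjusted p 0.069), without the filter (adjusted p 0.066) and with all 12 libraries in a single fit (adjusted p 0.054). With replicate number as a block, where numbers may pair silenced and scrambled wells, Slit1 gained a call (log2FC 0.15, adjusted p 0.023) and no other call changed. In the other comparisons same-numbered wells had r of −0.45 to 0.04, so the numbers were not taken to pair wells. In no comparison did every well correlate best with its own number. The block gained Slit2 (adjusted p 0.0041) and Unc5a (adjusted p 0.0019) in the difference between responses. Calls were lost for Slit1 between the controls (adjusted p 0.088) and Epha5 in silenced against empty vector wells (adjusted p 0.055). The GC and length correction with the block lowered the members changed between the controls from 19 to 10, with 7 lower in place of 15. The share of all genes called in that fit was not examined, so the fall is not read as particular to the members. The correction with the block reversed Epha5 (0.11), Unc5c (0.048), Unc5d (0.021) and Robo2 (0.19) there. Without the block it also reversed Robo1 (0.16), with Epha5 at 0.11, Unc5c at 0.052, Unc5d at 0.021 and Robo2 at 0.20. In silenced against empty vector wells it reversed Epha4 (0.11, or 0.12 with the block), Epha5 (0.39 in both) and Epha7 (0.47 in both). The cause of these reversals was not tested. Overexpression gave 0 members changed in all 16 alternatives. Library size alone moved the median log2FC of all genes in silencing from −0.00 to 0.10, which carried Efnb1 (log2FC 0.089) and Ntng2 (log2FC 0.085), not called in either, across 0. Robo3, Epha2, Ephb4 and Efna4 had few counts, so small differences there were not detectable at this depth.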
